A study of Mus musculus with 8 samples.

Results

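The effect of oral sodium tungstate was examined in pancreatic islets of mice lacking insulin receptor substrate 2 (Irs2-/-), by setting the 2 arrays of treated Irs2-/- mice against the 2 arrays of untreated Irs2-/- mice. The arrays were taken by their titles, and these 4 are part of a series of 8. The other 4 arrays are of wild-type islets, 2 untreated and 2 treated. All mice were male C57Bl/6. Treatment was tungstate in the distilled drinking water. It began at 10 weeks of age and ended 21 days later at 13 weeks, while untreated mice had distilled water alone. Both Irs2-/- groups carry the same knockout throughout the body, so the comparison is of water with tungstate in mice without Irs2. The tungstate concentration was 2 mg/ml in the design text and 2 mg/dl in the sample labels, so the dose is not settled. The labels and design text do not say if each sample was 1 mouse or several mice pooled, so p-values reflect only how far these samples vary, which may be technical.

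Irs2 is an adaptor that couples activated insulin and IGF-1 receptors to enzymes inside the cell, and mice without it develop diabetes as beta cell mass fails to keep up with insulin resistance. Tungstate is an inorganic salt that lowers blood glucose in diabetic rodents when given by mouth, and it is known to inhibit protein tyrosine phosphatases. Islets hold insulin-secreting beta cells, glucagon-secreting alpha cells and somatostatin-secreting delta cells, together with endothelial cells, resident macrophages and, in preparations, some exocrine tissue.

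Each gene was read from 1 probe set, the one with the highest mean over the 8 arrays among those naming a single gene. Levels are log2 expression after RMA, so a difference of 1 is a 2-fold difference. Genes whose mean lay below 5.27, the 40th percentile of the probe sets, were left out, which left 13369 tested genes. Differences below are treated minus untreated Irs2-/- islets, given ± the standard error (SE) of a limma fit that pools the spread of all 4 groups, with 2 arrays in each. A gene was called higher or lower at an adjusted p under 0.05 (limma, Benjamini-Hochberg over the 13369 genes). The number of arrays limits the precision, and the median SE of a difference was 0.14.

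In genotype and tissue the arrays carried the RNA their labels describe, while the treatment cannot be checked from these levels. Irs2 read 4.54 and 4.89 untreated and 4.78 and 4.86 treated in Irs2-/- islets, and 7.61 to 7.91 on the wild-type arrays. Its own difference under tungstate was 0.10 ± 0.16 (limma adjusted p = 0.826). Ins2 (insulin) read 14.72 to 14.75 and Gcg (glucagon) 14.15 to 14.39 on the Irs2-/- arrays.

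The groups also differed in measures of the arrays themselves. The 18S ribosomal control probe sets averaged 11.05 and 10.63 untreated and 11.92 and 11.12 treated in Irs2-/- islets. The 3' minus 5' difference of the Gapdh control was 0.415 and 0.367 untreated and 0.554 and 0.423 treated. Both measures were therefore higher on each treated array than on either untreated one, and their part in the results was not tested. Untreated Irs2-/- replicate 1 stood apart on some marker lists. Its 24 immediate early genes averaged 9.11, against 7.57 on replicate 2, and its 14 lymphocyte markers averaged 8.60, against 7.44. Acinar markers, digestive enzymes of exocrine tissue, averaged 10.85 and 11.79 untreated and 10.34 and 11.40 treated, so those groups overlapped. Untreated wild-type replicate 1 stood apart too, with lymphocyte markers at 6.88 against 5.23 on replicate 2.

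**Figure D1:**
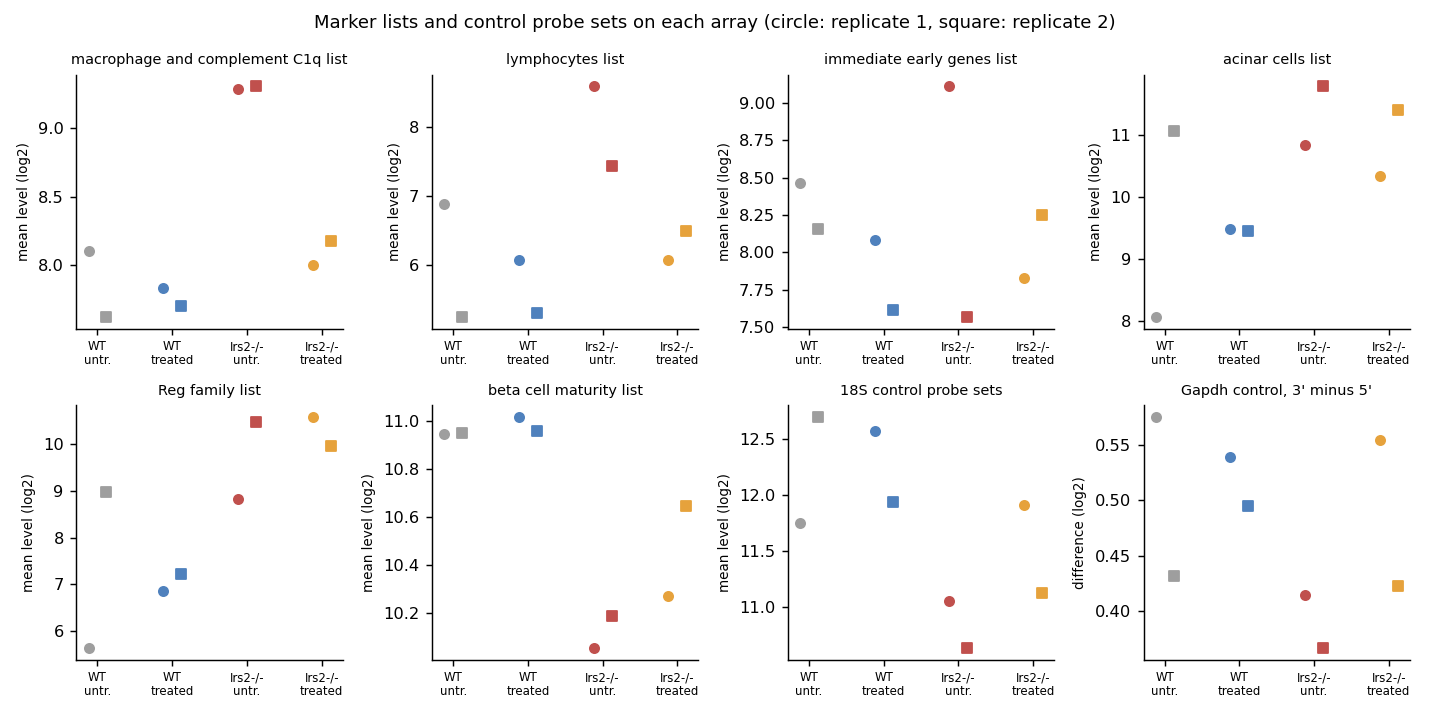
Mean log2 level of 6 marker lists and of the 18S control probe sets, and the 3' minus 5' difference of the Gapdh control, on each of the 8 arrays. Circles are replicate 1 and squares replicate 2 of each group, and each panel has its own axis. The macrophage list reads 9.29 and 9.30 untreated and 8.00 and 8.17 treated in Irs2-/- islets, and the lymphocyte and immediate early lists are highest on untreated Irs2-/- replicate 1.

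In treated Irs2-/- islets 63 genes were lower and 3 were higher than in untreated Irs2-/- islets. Of the 63 lower genes, 28 were chemokines, macrophage genes or other genes of immune cells, by a grouping made by hand after the values were seen. Secreted peptides and proteins, among them gastrin and neuromedin B, and a vesicle protein made up another 8. Genes with which mature beta cells sense glucose were not among the calls. Called genes were 0.494% of the 13369 tested, 0.471% for lower and 0.0224% for higher, and 52 of the 66 differed by 2-fold or more. The lower genes differed by 1.76-fold to 11.3-fold, with a median of -1.37. At an unadjusted p under 0.05 there were 1780 genes, of which 1277 were lower. With so few calls, a short list taken from all genes would mostly hold 0, so 0 calls in a list below says little.

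In all 66 the 2 treated arrays did not overlap the 2 untreated ones, but 40.5% of all tested genes had arrays without overlap (22.9% lower, 17.6% higher), so this alone sets no gene apart. The median difference over all tested genes was -0.01. Among the called genes, Ccl8, Cxcl9, Fst, Nkg7, Pqlc3, Serpina1b and Ttc25 had a mean under 5.27 in every group but untreated Irs2-/- islets. Only the untreated Irs2-/- arrays carried these genes past the filter. Calls depended on single arrays. The count of 66 became 32 without untreated Irs2-/- replicate 1 and 265 without replicate 2. It became 137, of which 34 were higher, without treated Irs2-/- replicate 1 and 29 without treated replicate 2. Without either treated wild-type array, which enters only the estimate of the spread, it was 16. None of the 66 changed sign in any of these fits, and 12 stayed past the threshold in every one of the 8 fits that left out an array: Aif1, Cxcl9, Fcna, Fxyd5, Gast, Mfap3l, Mpeg1, Nmb, Plaur, Serpina1b, Slc5a10 and Sorcs2.

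**Figure D2:**
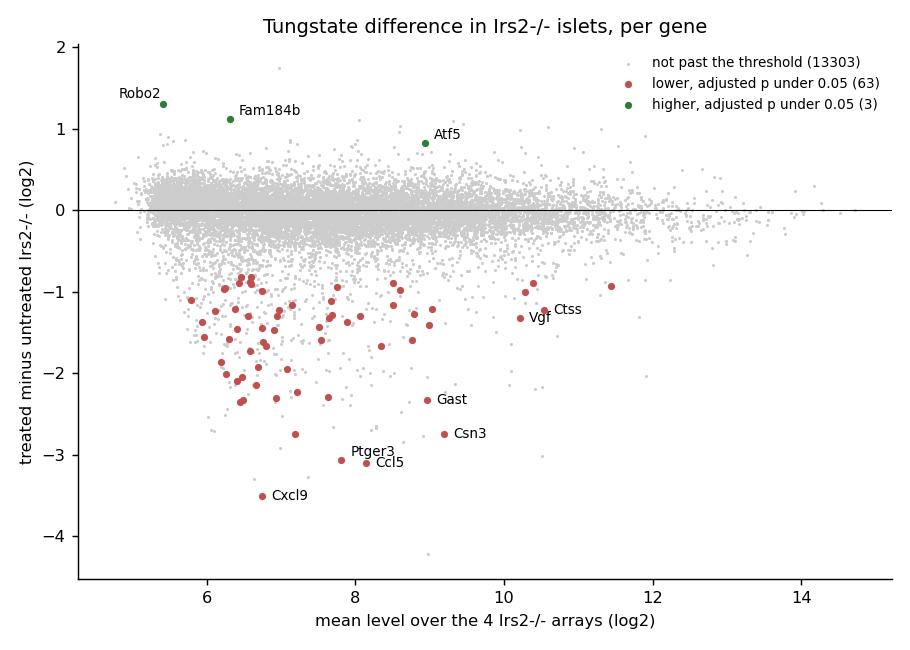
Difference of treated minus untreated Irs2-/- islets (log2) against the mean level over the 4 Irs2-/- arrays (log2), with a point for each of the 13369 tested genes. The 63 genes called lower (red) and the 3 called higher (green) are marked at a limma adjusted p under 0.05, and Cxcl9 lies lowest among the called genes at -3.50. The grey point below it is Iglv1, whose arrays differed too much for a call.

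Chemokines, secreted proteins that draw leukocytes into tissue, were lower, and Cxcl9 and Ccl5 had the largest differences of the 66 called genes. Cxcl9, an interferon-induced chemokine that attracts T cells, read 8.49 and 8.49 untreated and 4.57 and 5.41 treated. It fell by 3.50 ± 0.30, or 11.3-fold (limma adjusted p = 0.00626), and the wild-type arrays read 4.29 to 4.97. The files hold no detection calls, and the treated level lay near the 4.54 to 4.89 that Irs2 read in its own knockout, so a fold that ends this low is inexact. Ccl5, a chemokine for T cells and macrophages, read 10.05 and 9.33 untreated and 6.60 and 6.58 treated. Its fall of 3.10 ± 0.36 was 8.57-fold (limma adjusted p = 0.0185). The monocyte chemokine gene Ccl8 read 7.03 and 8.20 untreated and 5.28 and 5.26 treated, a fall of 2.35 ± 0.32 (limma adjusted p = 0.0328). The untreated replicates of Ccl8 lay more than 1 log2 unit apart, while the treated replicates were nearly equal.

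Those were the 3 genes called, all lower, among 21 tested members of a list of chemokines, cytokines and NF-kB targets. Of the 21, 20 lay below 0 (6952 of all 13369 genes did), with a median of -0.62 against -0.01 for all genes. The list had 32 members with a probe set, and those under the filter were not tested. Of these, Saa1 and Saa2 were slightly higher on both treated arrays, and Ccl7 and Cxcl11 slightly lower. For Cxcl9 and Ccl8 the mean of every other group lay under the filter, so only the untreated Irs2-/- arrays carried them past it. The count of 3 was 9 without untreated Irs2-/- replicate 2, and 1 without treated Irs2-/- replicate 2 or without either treated wild-type array. Saa3, an acute-phase protein, read 9.19 and 8.45 untreated and 6.44 and 7.55 treated (-1.83 ± 0.37, limma adjusted p = 0.101) and was not called. Cxcr3, the receptor for Cxcl9, read 6.71 and 6.71 untreated and 5.71 and 5.78 treated, and it was called lower (-0.96 ± 0.11, limma adjusted p = 0.0185). Receptor and ligand were thus both lower, the receptor by 1.95-fold.

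Macrophage genes were lower in treated islets. In the list of macrophage and complement C1q markers 7 of 21 tested members were called, all lower (0.471% of all genes were), and the 14 others also lay below 0. The median was -1.28, and the list averaged 9.29 and 9.30 on the untreated, 8.00 and 8.17 on the treated Irs2-/- arrays and 7.62 to 8.11 on the wild-type arrays. Whole islets were measured, so fewer cells of a type and less RNA per cell cannot be told apart. The 7 calls became 10 without either untreated wild-type array, 3 without treated Irs2-/- replicate 2 and 2 without either treated wild-type array.

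Aif1, a calcium-binding protein used as a macrophage marker, read 7.72 and 7.53 untreated and 5.91 and 6.01 treated (-1.66 ± 0.15, limma adjusted p = 0.0063). Cd68, a lysosomal glycoprotein of macrophages, read 7.15 and 7.02 untreated and 5.29 and 5.72 treated (-1.58 ± 0.18, limma adjusted p = 0.0173). In both genes the gap between the groups was several times the gap between replicates. The complement gene C1qc read 8.18 and 8.47 untreated and 7.14 and 6.95 treated (-1.28 ± 0.13, limma adjusted p = 0.0113). C1qb, which encodes another chain of the same complex, read 8.85 and 9.31 untreated and 8.04 and 7.80 treated (-1.16 ± 0.17, limma adjusted p = 0.0351). The cathepsin gene Ctss, a lysosomal protease used in antigen presentation, read 11.13 and 11.17 untreated and 9.85 and 10.00 treated (-1.22 ± 0.14, limma adjusted p = 0.0157). Tyrobp and Fcer1g, adaptors that carry signals from activating receptors, fell by 1.30 ± 0.17 and 0.94 ± 0.12.

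Outside that list a further 7 genes of macrophages and other myeloid cells were called lower, grouped so after their values were seen. The scavenger receptor gene Marco read 8.44 and 7.71 untreated and 5.82 and 5.73 treated, a 4.93-fold fall (-2.30 ± 0.24, limma adjusted p = 0.0113). Fcna, a ficolin of the lectin complement pathway, read 7.73 and 7.39 untreated and 5.94 and 5.95 treated (-1.62 ± 0.16, limma adjusted p = 0.00905). Mpeg1, a pore-forming protein of macrophages, read 9.35 and 9.50 untreated and 8.20 and 8.12 treated (-1.27 ± 0.12, limma adjusted p = 0.00777). The replicates of these 3 genes lay within 0.10 of each other on the treated arrays. The others were the fungal pattern receptor gene Clec7a (-1.59), the lysosomal protease gene Lgmn (-1.36), the phospholipase family gene Pld4 (-1.23) and Ms4a6c (-0.99). Over all 14 genes of this kind, picked because they were called, the median difference was -1.29. Of the 14, 8 stayed past the threshold without untreated Irs2-/- replicate 1, 8 without treated replicate 1, 6 without treated replicate 2 and 5 without either treated wild-type array. Fcgr3, an antibody receptor, lay just outside the threshold (-1.37 ± 0.22, limma adjusted p = 0.0502).

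Promoter windows of the called genes were searched for letters that transcription factors of macrophages and of inflammation are known to bind. RefSeq windows of GRCm38.p6, from 250 bases before to 50 after a gene's start, were at hand for 46 of the 66 genes, 60 windows in all. GAGGAAGT, the letters bound by the myeloid factor PU.1, stood on either strand in 6 of the 60 windows (10.0%) and in 3.20% of all 32817 windows. The 6 were of C1qc, Ctss, Cxcr3, Pld4, Pycard and Sh3bp2. The windows of 3 of the macrophage genes are shown, with these letters or their reverse complement in capitals.
C1qc: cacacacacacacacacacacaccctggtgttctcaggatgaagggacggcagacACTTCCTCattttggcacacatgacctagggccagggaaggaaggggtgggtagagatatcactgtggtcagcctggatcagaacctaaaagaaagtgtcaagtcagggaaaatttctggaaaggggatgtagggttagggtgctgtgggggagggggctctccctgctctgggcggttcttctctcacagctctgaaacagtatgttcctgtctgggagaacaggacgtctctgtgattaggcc
Ctss: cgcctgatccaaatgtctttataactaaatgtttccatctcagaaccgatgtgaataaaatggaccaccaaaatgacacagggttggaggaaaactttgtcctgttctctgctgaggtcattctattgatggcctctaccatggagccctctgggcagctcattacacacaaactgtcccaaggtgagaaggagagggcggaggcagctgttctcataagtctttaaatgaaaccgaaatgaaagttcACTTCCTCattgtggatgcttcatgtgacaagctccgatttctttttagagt
Pld4: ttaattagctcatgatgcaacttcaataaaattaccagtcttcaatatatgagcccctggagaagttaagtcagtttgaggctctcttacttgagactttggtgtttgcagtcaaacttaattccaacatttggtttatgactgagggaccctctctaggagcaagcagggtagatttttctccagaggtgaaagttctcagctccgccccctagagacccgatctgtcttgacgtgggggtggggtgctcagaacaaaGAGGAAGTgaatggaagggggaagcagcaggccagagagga
The C1qc window is chr4:136892865-136893164 on the minus strand, the Ctss window chr3:95526536-95526835 on the plus strand and the Pld4 window chr12:112760405-112760704 on the plus strand. Counted from the start of the gene, the letters begin at -195 in C1qc, -2 in Ctss and 10 in Pld4. The Ctss window also holds the interferon-stimulated response element at -21, which does not overlap them. A match is a description of letters and not a site of binding. Of the other motifs searched, on both strands, TTCNNNGAA of STAT factors was in 5.0% of the called genes' windows and 8.29% of all windows. The interferon-stimulated response element was in 3.33% and 3.43%, the NF-kB motif in 1.67% and 1.47%, and TGANTCA of AP-1 in 11.7% and 7.81%. TGACGTCA of CREB was in 0 of 60 windows and 1.79% of all.

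Other genes of immune cells were called lower as well, 11 of them, picked because they were called, with a median of -1.22. Plaur, the urokinase receptor of activated leukocytes, read 8.29 and 8.15 untreated and 6.92 and 6.66 treated (-1.43 ± 0.12, limma adjusted p = 0.00626). Cfb, factor B of the alternative complement pathway, read 7.85 and 7.43 untreated and 6.19 and 6.14 treated (-1.47 ± 0.18, limma adjusted p = 0.0203). Complement genes of 3 pathways were thus among the calls, with C1qb and C1qc of the classical and Fcna of the lectin pathway. Nkg7, a granule protein of cytotoxic lymphocytes, fell by 1.55 ± 0.21, and Pycard, the adaptor of inflammasomes, by 1.32 ± 0.20. Evi2a (-2.04), the selectin ligand gene Selplg (-1.16), AW112010 (-1.22), Tnfaip8l2 (-0.95), the adaptor gene Sh3bp2 (-0.88) and the cathepsin gene Ctsw (-0.82) complete the group with Cxcr3. Of the 11, all stayed past the threshold without untreated Irs2-/- replicate 2, 8 without either untreated wild-type array, 4 without treated replicate 1, 2 without untreated replicate 1, and 1 without treated replicate 2 or either treated wild-type array.

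Lymphocyte markers were lower in level, but 0 of 14 were called by limma, where 0.494% of all tested genes were. At an unadjusted p under 0.05 there were 9, against 1780 of all 13369. The median was -2.10, lower than for any other list. Cd3g, a subunit of the T cell receptor complex, read 8.20 and 6.70 untreated and 4.51 and 4.97 treated (-2.71 ± 0.52, limma adjusted p = 0.0879). Cd3d, another subunit, read 8.01 and 6.97 untreated and 5.51 and 6.00 treated (-1.74 ± 0.38, limma adjusted p = 0.117). Cd2, an adhesion molecule of T cells, read 8.43 and 6.92 untreated and 5.41 and 5.44 treated (-2.25 ± 0.51, limma adjusted p = 0.121). In each of these the treated arrays lay below both untreated arrays, as in 22.9% of all tested genes, and untreated replicate 1 lay far above replicate 2. Without untreated replicate 2, 5 of the 14 were called lower. The immunoglobulin gene Iglv1, named after its values were seen, had the largest difference of all tested genes but widely spread replicates, at 12.87 and 9.30 untreated and 7.53 and 6.20 treated (-4.22 ± 1.27, limma adjusted p = 0.216).

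Interferon response and antigen presentation genes followed with 0 of 31 called by limma, 12 at an unadjusted p under 0.05 and a median of -0.34. Of all 13369 tested genes 0.494% were called and 1780 had an unadjusted p under 0.05. Psmb8, a subunit of the immunoproteasome, read 9.62 and 9.03 untreated and 8.19 and 8.03 treated (-1.22 ± 0.23, limma adjusted p = 0.0862). Gbp2, an interferon-induced GTPase, read 8.44 and 7.12 untreated and 6.03 and 6.00 treated (-1.77 ± 0.39, limma adjusted p = 0.117). Without untreated replicate 2, 6 of the 31 were called lower.

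**Figure D3:**
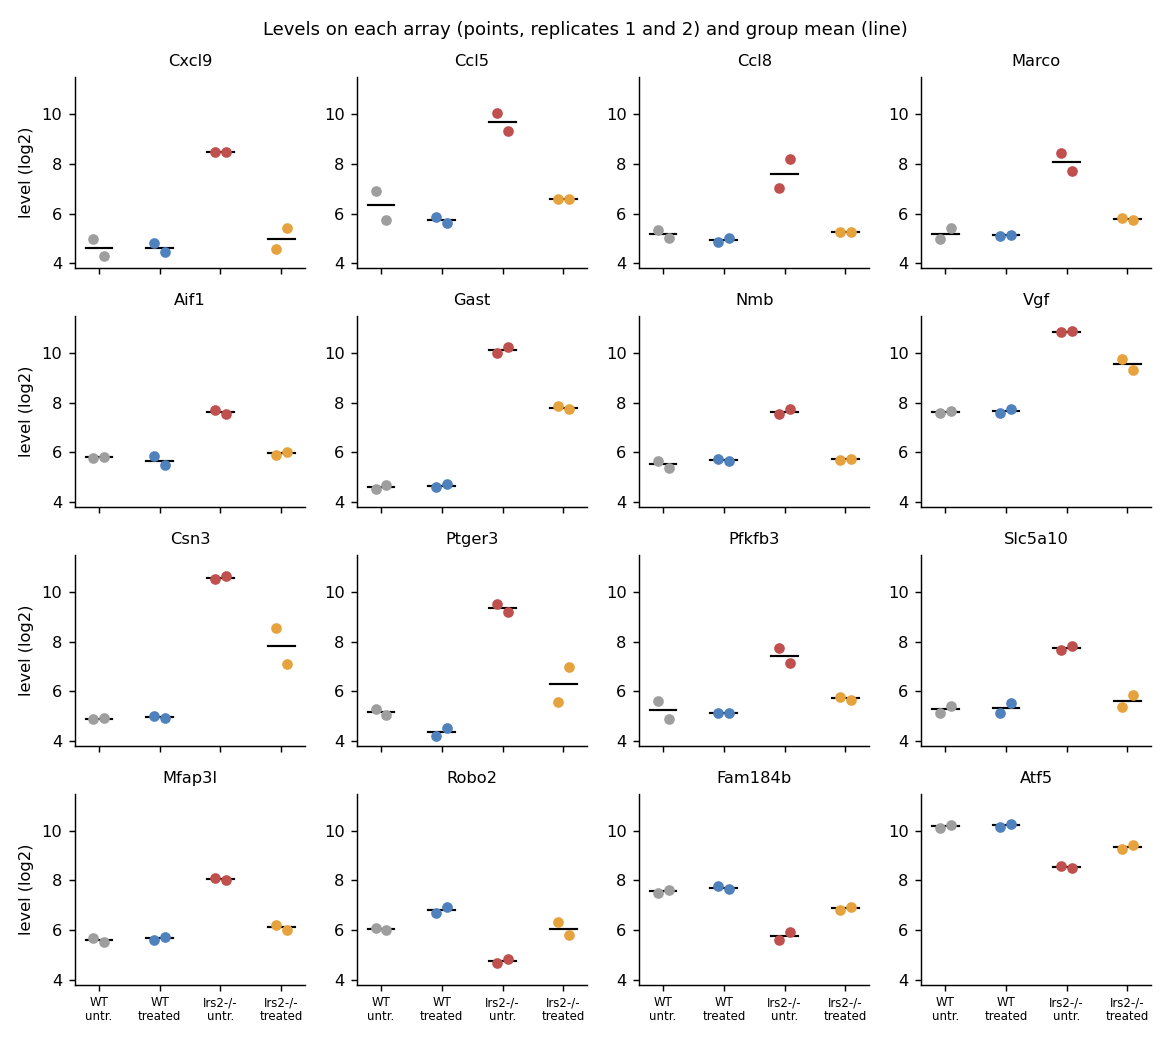
Log2 level of 16 called genes on each array, with points for replicates 1 (left) and 2 (right) and a line at the mean of each group, on the same axis in all panels. Of the 16 genes 13 are lower and 3, Robo2, Fam184b and Atf5, are higher on the treated than on the untreated Irs2-/- arrays, without overlap.

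Secreted peptides and proteins of granules and vesicles formed the next group, 8 genes picked because they were called lower, with a median of -1.96. Gast, the precursor of gastrin, a stomach hormone made in fetal but hardly in adult islets, had the smallest p of all genes. It read 10.00 and 10.26 untreated and 7.85 and 7.76 treated in Irs2-/- islets, and 4.53 to 4.72 on the wild-type arrays. The fall was 2.32 ± 0.13, or 4.99-fold (limma adjusted p = 0.00174), and the treated arrays stayed more than 3 log2 units above the wild-type ones. Nmb, which encodes the peptide neuromedin B, read 7.54 and 7.75 untreated and 5.71 and 5.75 treated, a fall of 1.92 ± 0.14 (limma adjusted p = 0.00369). Its treated levels lay close to the wild-type arrays at 5.37 to 5.74. Vgf, a granule protein cleaved into several peptides, read 10.87 and 10.87 untreated and 9.77 and 9.33 treated, a fall of 1.32 ± 0.16 (limma adjusted p = 0.0185), with wild-type arrays at 7.58 to 7.75.

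These were the 3 called members of 14 tested neuropeptide precursors, whose median was 0.03, with 7 members above and 7 below 0. Tac1, the precursor of substance P, had the opposite direction but wide replicates, at 8.01 and 9.52 untreated and 10.13 and 9.58 treated (1.09 ± 0.46, limma adjusted p = 0.363). Csn3, kappa-casein of milk, read 10.52 and 10.62 untreated and 8.56 and 7.08 treated, a fall of 2.75 ± 0.39 (limma adjusted p = 0.0351). It read 4.86 to 4.99 on the wild-type arrays, below both Irs2-/- groups. The treated replicates of Csn3 lay 1.48 apart, among the widest gaps of the called genes. Spx, the precursor of the peptide spexin, fell by 2.33 ± 0.33, and Fst, the activin-binding protein follistatin, by 2.01 ± 0.29. Cgref1 (-1.58) and the synaptic vesicle gene Sv2c (-1.21) were also lower. Of the 8 genes, 4 stayed past the threshold without treated Irs2-/- replicate 2, 5 without untreated replicate 1 and 2, Gast and Nmb, without either treated wild-type array.

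Receptors and regulators called lower included Ptger3, a prostaglandin E2 receptor that inhibits cyclic AMP formation and thereby insulin release. It read 9.50 and 9.17 untreated and 5.58 and 6.98 treated (-3.06 ± 0.39, 8.32-fold, limma adjusted p = 0.0275), and 4.18 to 5.28 on the wild-type arrays. It was the 1 called member of 12 tested prostaglandin receptors and synthesis genes, whose median was -0.13. Ptger4, another receptor for the same ligand, read 8.59 and 7.53 untreated and 7.37 and 6.72 treated (-1.02 ± 0.46, limma adjusted p = 0.399). The Ptger3 call was lost without untreated Irs2-/- replicate 1 (limma adjusted p = 0.146) and without either treated wild-type array (0.0868). Sorcs1 and Sorcs2 encode sorting receptors of the VPS10 family. Sorcs1 read 8.45 and 8.65 untreated and 6.58 and 5.05 treated (-2.74 ± 0.41, limma adjusted p = 0.043), with treated replicates 1.53 apart. Sorcs2 read 7.47 and 7.46 untreated and 6.06 and 5.99 treated (-1.44 ± 0.12, limma adjusted p = 0.00621). The repressor gene Bcl6 fell by 1.45 ± 0.20, but another probe set of Bcl6 gave a difference of 0.10. Bcl6 and Csn3 were the 2 called members of 10 tested genes of prolactin and STAT5 signalling, whose median was -0.12. Of the 4 genes, 1 stayed past the threshold without untreated Irs2-/- replicate 1 or either treated wild-type array, and 3 did without each of the other arrays.

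Among the called genes, 9 were grouped by hand as genes of fuel use and transport. Picked because they were called, all 9 were lower, with a median of -1.0. Pfkfb3, the enzyme whose product speeds glycolysis, read 7.74 and 7.13 untreated and 5.79 and 5.64 treated (-1.72 ± 0.26, limma adjusted p = 0.0405). Pdk1, the kinase that holds back entry of pyruvate into mitochondria, read 9.08 and 8.83 untreated and 7.94 and 8.17 treated (-0.90 ± 0.14, limma adjusted p = 0.0495). They were the 2 called members of 28 tested genes of glycolysis and pyruvate entry, where the median was -0.09. Neither was called without untreated Irs2-/- replicate 1, without either treated Irs2-/- array or without either treated wild-type array, and Pdk1 was not called without either untreated wild-type array. Hk2, a hexokinase that mature beta cells keep low, read 6.07 and 5.95 untreated and 5.39 and 5.33 treated (-0.65 ± 0.11, limma adjusted p = 0.0621).

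The transporter gene Slc5a10, a sodium-coupled carrier of sugars, read 7.66 and 7.82 untreated and 5.35 and 5.84 treated (-2.14 ± 0.20, limma adjusted p = 0.00777). Fxyd5, a regulator of the sodium pump, read 9.23 and 9.12 untreated and 7.59 and 7.44 treated (-1.66 ± 0.14, limma adjusted p = 0.00621). Both pairs of treated arrays lay at least 1.5 log2 units below the untreated ones. Arrdc4, an alpha-arrestin that restrains glucose uptake, read 9.23 and 8.95 untreated and 8.14 and 8.10 treated (-0.97 ± 0.15, limma adjusted p = 0.0459). Its relative Txnip read 12.97 and 12.35 untreated and 11.89 and 11.70 treated, the same order of groups, without a call (-0.86 ± 0.30, limma adjusted p = 0.275). The amino acid transporter gene Slc1a5 (-0.90), the glycine decarboxylase gene Gldc (-0.89), the glutathione transferase gene Gstm5 (-1.0) and the water channel gene Aqp4 (-1.40) were called lower too. Of the 9, 3 stayed past the threshold without untreated Irs2-/- replicate 1, 4 without treated replicate 1, and 2 without treated replicate 2 or either treated wild-type array. The promoter window of Arrdc4 is shown because it holds CACGTG, the E-box core bound by glucose-responsive factors, in capitals.
Arrdc4: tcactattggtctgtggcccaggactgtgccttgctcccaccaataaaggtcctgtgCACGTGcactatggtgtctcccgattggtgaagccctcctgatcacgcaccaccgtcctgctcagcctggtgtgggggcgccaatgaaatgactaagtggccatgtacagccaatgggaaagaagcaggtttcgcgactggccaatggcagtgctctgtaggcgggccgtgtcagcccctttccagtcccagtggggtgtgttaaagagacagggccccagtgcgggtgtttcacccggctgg
This window is chr7:68749189-68749488 (GRCm38.p6) on the minus strand, and the letters begin at -193 from the start of the gene. CACGTG was in 8 of the 60 windows of called genes (13.3%), those of Arrdc4, Bcl6, Cgref1, Fam184b, Lgmn, Pfkfb3 and Robo2, and in 7.15% of all windows.

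Protease inhibitors and a pore-forming protein were among the remaining lower genes. Serpina1b, an alpha-1 antitrypsin of mice, read 7.01 and 7.23 untreated and 5.28 and 5.24 treated (-1.86 ± 0.17, limma adjusted p = 0.00652). Its mean in every other group lay under the filter, so only the untreated Irs2-/- arrays carried it past. Serpinb1a, an inhibitor of neutrophil proteases, fell by 2.29 ± 0.35, and Serpini1, or neuroserpin, by 0.90 ± 0.14. Gsdma, a gasdermin, fell by 2.23 ± 0.30. Mfap3l, a membrane protein, read 8.09 and 8.01 untreated and 6.21 and 6.00 treated, with the second smallest p of all genes (-1.94 ± 0.13, limma adjusted p = 0.00247). The other 9 were Tmem45b (-2.09, treated replicates 1.23 apart), Ttc25 (-1.37), Nrip3 (-1.29), Sh2d5 (-1.29), Tmem252 (-1.23), Tmem212 (-1.12), Pqlc3 (-1.09), Tmbim4 (-0.93, with 0.10 from another probe set) and A930009L07Rik (-0.81). Of the 4 inhibitor and gasdermin genes 1 stayed past the threshold without untreated Irs2-/- replicate 1 or treated replicate 2. Of the last 10, Mfap3l included, 2 did without untreated replicate 1 or either treated wild-type array, 5 without treated replicate 2 or either untreated wild-type array and 6 without untreated replicate 2.

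Higher in treated islets were 3 genes. Robo2, a receptor for Slit guidance proteins, read 4.69 and 4.83 untreated and 6.31 and 5.81 treated (1.30 ± 0.18, limma adjusted p = 0.0328). Its untreated levels lay within the 4.54 to 4.89 that Irs2 read in its own knockout, so the size of this rise is inexact. Wild-type arrays read 6.00 and 6.07 untreated and 6.67 and 6.92 treated, and Robo2 was the 1 called member of 42 tested axon guidance genes (median 0.13). Fam184b read 5.60 and 5.91 untreated and 6.81 and 6.93 treated (1.12 ± 0.14, limma adjusted p = 0.0237), with wild-type arrays at 7.48 to 7.77. Atf5, a transcription factor of stress responses that beta cells use to survive, read 8.56 and 8.49 untreated and 9.26 and 9.44 treated (0.82 ± 0.12, limma adjusted p = 0.0351), with wild-type arrays at 10.13 to 10.26. None of the 3 was called without untreated Irs2-/- replicate 1 or without either treated wild-type array, Atf5 was not called without untreated replicate 2 or either untreated wild-type array, and Atf5 and Fam184b were not called without treated replicate 2.

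Genes that mark mature beta cells had 0 of 22 called by limma, where 0.494% of all tested genes were. At an unadjusted p under 0.05 there were 7, against 1780 of all 13369. Of the 22, 16 lay above 0, and the median was 0.25. Slc2a2, the glucose transporter GLUT2, read 10.58 and 11.03 untreated and 11.17 and 12.43 treated, and 12.97 to 13.26 on the wild-type arrays. Its difference was 1.0 ± 0.36, with a 95% confidence interval of 0.16 to 1.84 (limma adjusted p = 0.297). Ucn3, urocortin 3 of mature beta cells, read 9.43 and 10.03 untreated and 10.20 and 11.22 treated (0.98 ± 0.32, limma adjusted p = 0.24). In both genes treated replicate 2 lay at least 1 log2 unit above treated replicate 1. The channel gene Trpm5 (1.11 ± 0.32), the zinc transporter gene Slc30a8 (0.79 ± 0.22) and the phosphatase inhibitor gene Ppp1r1a (0.78 ± 0.20) showed the same order of arrays. Pcx, pyruvate carboxylase, had close replicates, at 7.41 and 7.77 untreated and 8.37 and 8.53 treated, and came nearest to the threshold (0.86 ± 0.14, limma adjusted p = 0.0621). Without treated replicate 1, 6 of the 22 were called higher, among them Slc2a2 (1.63, limma adjusted p = 0.0328), Ucn3 (1.49, 0.0433), Trpm5 (1.64, 0.0284), Slc30a8 (1.15, 0.029) and Ppp1r1a (1.08, 0.0376). These values rest on 1 treated array, whose spread is taken from the other groups.

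Insulin itself was not called. Ins2 read 14.74 and 14.72 untreated and 14.72 and 14.75 treated (0.00 ± 0.10, limma adjusted p = 0.989, 95% confidence interval -0.23 to 0.24), at the top of the scale of these arrays. Islet transcription factors had 0 of 21 called by limma, 3 at an unadjusted p under 0.05 and a median of 0.14. Pdx1 read 9.21 and 9.59 untreated and 9.59 and 9.90 treated (0.35 ± 0.16, limma adjusted p = 0.402), and Nkx6-1 read 9.42 and 9.76 untreated and 9.76 and 10.29 treated (0.44 ± 0.19, limma adjusted p = 0.38). Both are factors that keep beta cell identity. Among other hormones, Gcg differed by 0.09 ± 0.12 and Sst (somatostatin) by 0.24 ± 0.13. Rbp4, a retinol carrier listed with the other endocrine cells, read 11.61 and 12.01 untreated and 10.88 and 10.67 treated (-1.04 ± 0.19, limma adjusted p = 0.086), the lowest p of that list.

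Genes of dedifferentiated beta cells, and genes that beta cells normally keep silent, had 1 of 25 called, Gast, which was lower. Of the 25, 22 lay below 0 with a median of -0.73. In wild-type islets the same list had a median of -0.33, against -0.03 for all genes. There the list averaged 6.82 on untreated replicate 1 and 6.06 to 6.23 on the other wild-type arrays, so 1 array weighs heavily in it. Aldh1a3, an enzyme that marks failing beta cells, read 9.10 and 8.15 untreated and 8.73 and 7.21 treated, so its groups overlapped (-0.66 ± 0.55, limma adjusted p = 0.645). Fbp2, a gluconeogenic phosphatase, read 7.27 and 8.03 untreated and 6.63 and 6.77 treated (-0.95 ± 0.26, limma adjusted p = 0.182). Several members of that list are also made by other cell types, and macrophage and lymphocyte markers were lower on the same arrays (list medians of -1.28 and -2.10). Their part in the list's median was not tested.

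Cell cycle genes had 0 of 35 called by limma and 22 at an unadjusted p under 0.05, with a median of -0.64. Over all 13369 tested genes 0.494% were called and 1780 had an unadjusted p under 0.05. The replication gene Mcm5 read 8.25 and 7.38 untreated and 6.24 and 6.12 treated (-1.63 ± 0.28, limma adjusted p = 0.0635). Rrm2, which makes DNA precursors, read 8.80 and 8.13 untreated and 7.01 and 7.32 treated (-1.30 ± 0.24, limma adjusted p = 0.0862). Mki67, a marker of dividing cells, read 8.58 and 7.25 untreated and 5.76 and 6.41 treated (-1.83 ± 0.44, limma adjusted p = 0.135). Untreated replicate 1 was the highest of the 4 arrays in each, as for the lymphocyte markers, and without untreated replicate 2, 16 of the 35 were called lower. The cell cycle inhibitor gene Cdkn1a differed by -0.41 ± 0.20 (limma adjusted p = 0.436).

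**Figure D4:**
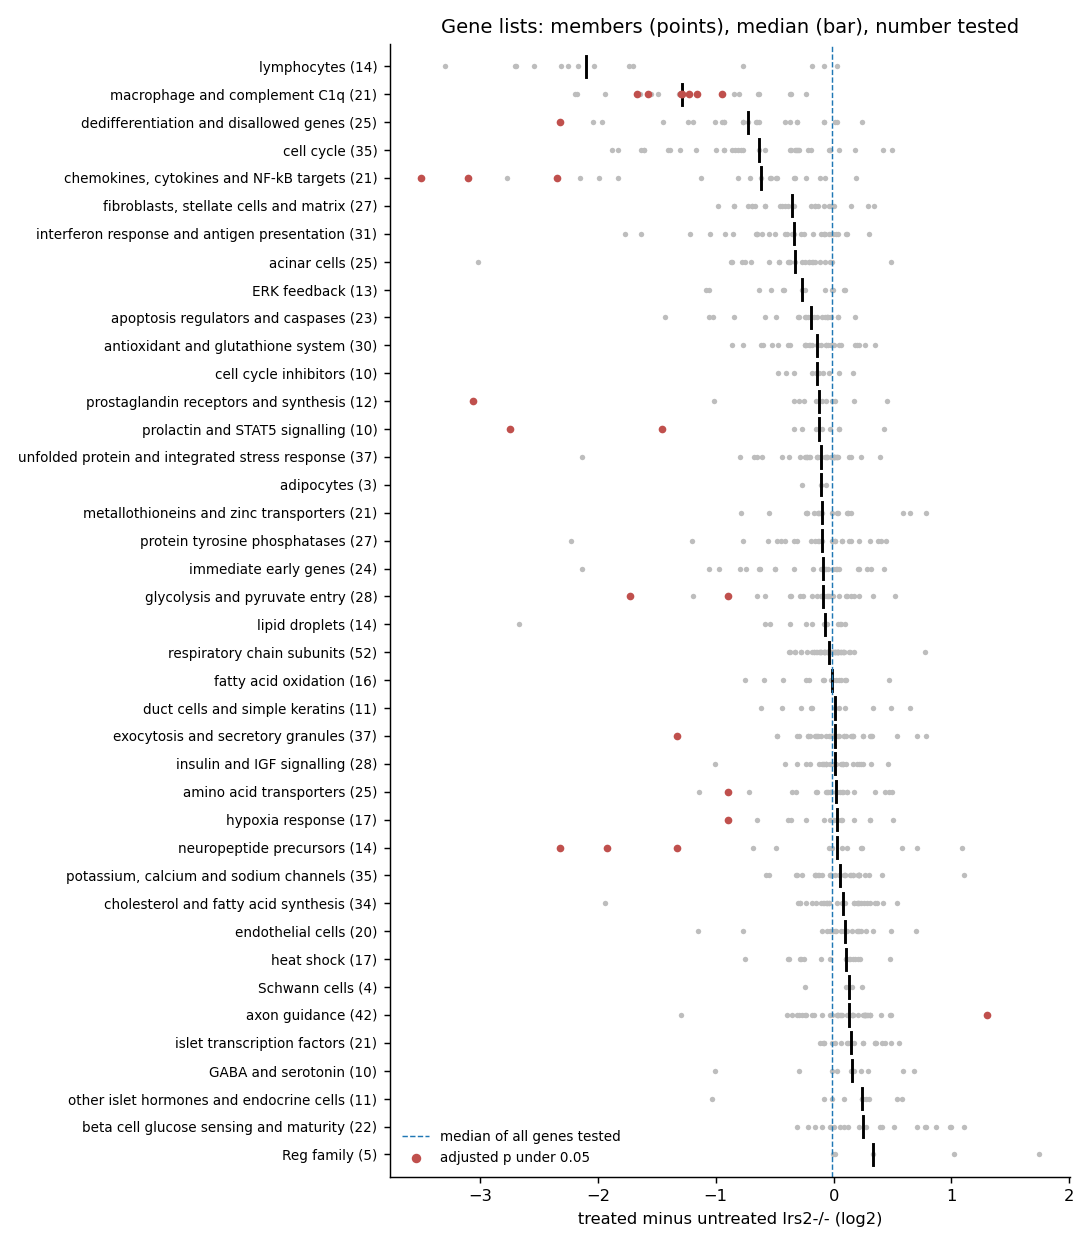
Difference of treated minus untreated Irs2-/- islets (log2) for the tested members of 40 gene lists (points, called genes in red), with the median of each list (black bar) and of all 13369 genes (dashed line). The number tested is in parentheses. The lymphocyte (-2.10) and macrophage (-1.28) medians lie lowest, and called genes lie below 0 except Robo2 in the axon guidance list.

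The signalling genes closest to tungstate and to Irs2 were not called. Of all 13369 genes 0.494% were called and 1780 had an unadjusted p under 0.05, so 0 calls in short lists says little. Of 28 insulin and IGF signalling genes 0 were called by limma, with 2 at an unadjusted p under 0.05 and a median of 0.01. The related adaptor gene Irs1 read 7.49 and 7.65 untreated and 7.53 and 8.05 treated (0.22 ± 0.20, limma adjusted p = 0.682), and the receptor gene Igf1r 9.74 and 9.38 untreated and 9.79 and 9.46 treated (0.06 ± 0.20, limma adjusted p = 0.929). Among 27 protein tyrosine phosphatase genes 0 were called by limma and 10 had an unadjusted p under 0.05 (median -0.10). Ptpn1, the phosphatase that acts on the insulin receptor, differed by -0.31 ± 0.19 (limma adjusted p = 0.529), and Ptpn18, with the smallest p of those named, by -1.20 ± 0.23 (limma adjusted p = 0.0862). Of 13 genes of ERK feedback 0 were called by limma, with 3 at an unadjusted p under 0.05. Their median was -0.27 in both genotypes. The ERK phosphatase gene Dusp6 read 10.50 and 10.59 untreated and 9.78 and 9.20 treated (-1.06 ± 0.20, limma adjusted p = 0.086), and Dusp4 differed by -1.09 ± 0.22 (limma adjusted p = 0.102). Both pairs of treated arrays lay below the untreated ones, as they did for 22.9% of all tested genes.

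Metal-binding, unfolded protein and lipid droplet genes gave 0 calls in limma's fit, while the hypoxia list had 1 of 17 called, Pdk1, with a median of 0.03. The metallothioneins Mt1 and Mt2, which bind zinc and copper, read 11.36 and 11.44, and 10.09 and 10.16, on the untreated arrays. On the treated arrays they read 11.96 and 12.03, and 10.92 and 10.64, higher without overlap, as 17.6% of all tested genes were. They fell short of the threshold (0.59 ± 0.20 and 0.65 ± 0.25, limma adjusted p = 0.276 and 0.318). Mt3 lay the other way (-0.55 ± 0.15). The metal list as a whole had 0 of 21 called by limma, with 5 at an unadjusted p under 0.05. Of 37 unfolded protein and integrated stress response genes 0 were called by limma and 3 had an unadjusted p under 0.05 (median -0.11). Edem1, which helps degrade misfolded proteins, differed by -0.80 ± 0.17 (limma adjusted p = 0.114). The stress factor gene Ddit3 differed by -0.61 ± 0.35, but by 0.05 without untreated replicate 1, where it read 9.72 against 8.41 on replicate 2. Atf3, another stress factor, read 9.56 on untreated replicate 1 and 5.82, 5.09 and 6.02 on the 3 other Irs2-/- arrays, so its difference was -2.14 with a standard error of 1.0 and became -0.27 without untreated replicate 1.

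Cidea, a lipid droplet protein, read 9.46 and 9.76 untreated and 8.01 and 5.86 treated (-2.67 ± 0.56, limma adjusted p = 0.106), with treated replicates more than 2 log2 units apart. The fatty acid desaturases differed in direction: Scd1 by -1.94 ± 0.44 and Scd2 by 0.54 ± 0.11 (limma adjusted p = 0.119 and 0.102). Among 25 amino acid transporter genes Slc1a5 was called and the median was 0.02. Slc38a5, a glutamine carrier, read 10.83 and 10.88 untreated and 10.28 and 9.15 treated (-1.14 ± 0.37, limma adjusted p = 0.24). Slc1a1, a glutamate carrier, read 6.21 and 6.03 untreated and 5.33 and 5.48 treated (-0.72 ± 0.14, limma adjusted p = 0.091).

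Markers of exocrine, vessel and connective tissue cells gave 0 calls, where 0.494% of all tested genes were called. Acinar markers had 0 of 25 called by limma, 1 at an unadjusted p under 0.05 and a median of -0.33, and the trypsinogen gene Prss3 read 10.83 and 13.20 untreated and 6.53 and 11.47 treated (-3.02 ± 1.54). Endothelial markers had 0 of 20 called by limma, 3 at an unadjusted p under 0.05 and a median of 0.10. Aplnr, the apelin receptor of vessels, lay just outside the threshold (-1.15 ± 0.19, limma adjusted p = 0.0544), as did Tmem176a (-0.84 ± 0.13, limma adjusted p = 0.0502). Of 27 fibroblast, stellate cell and matrix genes 0 were called by limma and 3 had an unadjusted p under 0.05 (median -0.35). Their wild-type median was -0.55, with a mean level of 7.95 on untreated wild-type replicate 1 and 6.76 to 7.18 on the other wild-type arrays. Reg3a, of the Reg family of secreted lectins, had the largest positive difference of all tested genes, but 1 array carried it, with 5.51 and 6.68 untreated and 9.03 and 6.65 treated (1.74 ± 0.70, limma adjusted p = 0.341). A further 14 lists, on apoptosis, antioxidants, cell cycle inhibitors, immediate early genes, heat shock, ion channels, GABA and serotonin, lipid droplets, fatty acid oxidation, sterol and fatty acid synthesis, the respiratory chain, duct cells, Schwann cells and adipocytes, had 0 calls by limma, 0 to 5 genes each at an unadjusted p under 0.05 and medians from -0.19 to 0.16.

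Wild-type islets gave a comparison with no array in common. There 0 of 13369 genes were called for tungstate by limma, 364 had an unadjusted p under 0.05, and the smallest adjusted p was 0.796. That count of 0 became 9 without untreated wild-type replicate 2. The 63 genes lower in treated Irs2-/- islets had a median difference of -0.04 in wild-type islets, against -0.03 for all tested genes. These 63, picked by their fall in Irs2-/- islets, ranged from -0.80 to 0.28 in wild type. Of the 66 called genes 20 had a mean below 5.27, the filter level, in untreated wild-type islets. Levels this low may leave little room for a further fall, though Ptger3 among them, at 5.15, differed by -0.80 in treated wild-type islets. Across the 13369 genes the differences in the 2 genotypes had a Pearson's r of 0.295, as a description over genes that are not independent and were normalised together.

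The difference between the genotypes was itself tested by the interaction of genotype and tungstate, and 3 genes passed (0.0224% of those tested), all with a lower value in Irs2-/- islets. Gast differed by 0.05 in wild-type and -2.32 in Irs2-/- islets (interaction -2.37, limma adjusted p = 0.021). Gast is one of the 20 genes with an untreated wild-type mean below 5.27, at 4.61. A fall in wild type might not have shown there, so the Gast interaction does not compare responses. Mfap3l differed by 0.06 and -1.94 (interaction -2.01, limma adjusted p = 0.0263), and Nmb by 0.17 and -1.92 (interaction -2.09, limma adjusted p = 0.0263). Their untreated wild-type means, 5.60 for Mfap3l and 5.52 for Nmb, lay little above 5.27, which may leave little room for a fall as well. For the 63 other called genes the effects of tungstate in the 2 genotypes were not shown to differ. Nearest to the threshold was Sorcs2 (interaction adjusted p = 0.0791 in limma's fit), and Aif1, Cxcl9, Fcna, Fxyd5, Nrip3, Plaur, Serpina1b, Sh2d5 and Slc5a10 followed at 0.092. Of these, Cxcl9, Serpina1b and Slc5a10 also had an untreated wild-type mean below 5.27. Robo2 was higher in treated islets of both genotypes, by 0.76 in wild type without a call there. The count of 3 was 0 without any 1 of the 4 wild-type arrays or untreated Irs2-/- replicate 2, 10 without untreated Irs2-/- replicate 1, 12 without treated replicate 1 and 5 without treated replicate 2.

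**Figure D5:**
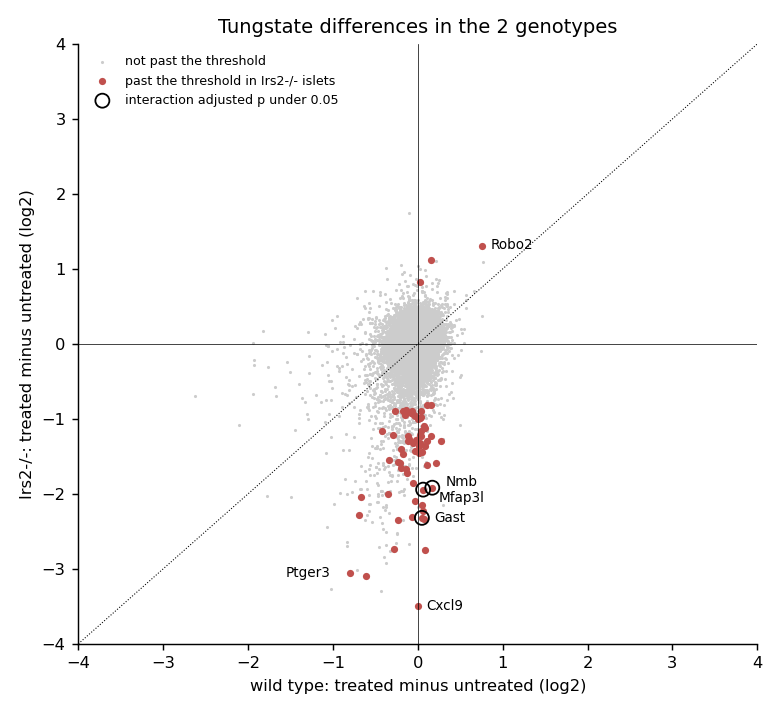
Difference of treated minus untreated islets (log2) in wild type (horizontal) and in Irs2-/- mice (vertical), with a point for each of the 13369 tested genes and a dotted line where both are equal. Genes called in Irs2-/- islets are red, and circles mark Gast, Mfap3l and Nmb, whose interaction passed the limma test. On the horizontal axis the 63 lower genes have a median of -0.04, against -0.03 for all 13369 genes.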

How the data were processed

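The authors deposited log2 values for each Affymetrix probe set, made with RMA from the affy package (R 2.7.0), per the submitters' processing notes. All 8 columns were used. Raw array files and scan dates were not used here. Genes were named through GEO's platform annotation: of 45037 probe sets besides 64 controls, 34945 name 1 gene, 932 several and 9160 none, giving 18193 genes, of which 4824 fell under the filter.

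A mean for each of the 4 groups was fitted with limma 3.58.1 (R 4.3.3), on 4 residual and 3.89 prior degrees of freedom. Deviations of same-numbered replicates correlated at 0.0995 between the Irs2-/- groups and at -0.066 to 0.42 over the 6 pairs of groups, not above 0.1 in every pair, and the labels state no pairing, so none was used. The workflow was tested on simulated data.

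Named genes are Irs2, up to 12 called genes per direction with the largest difference, up to 4 members per list with the smallest p and 19 fixed genes. Beside these, all 66 called genes are named (41 outside the rule), as are Iglv1, Fcgr3 and Tmem176a, chosen after their values were seen. The comparison, the 41 lists and the rule were chosen with earlier results of these data known. Of the lists 40 had a tested member; red blood cell markers had none. Alternatives were other filters, moderation, normalisation, probe set choice, covariates, thresholds and each array left out.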

Additional observations from a re-analysis of the deposited data

Results flagged for a closer look

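For 3 genes the tungstate difference itself differed between the genotypes by limma's interaction test. The value of Gast was -2.37 ± 0.18 on the log2 scale, that of Mfap3l -2.01 and that of Nmb -2.09 (limma adjusted p = 0.021, 0.0263 and 0.0263). Gast was near the bottom of the scale in wild-type islets, where a fall might not have shown, and Mfap3l and Nmb lay little above the filter of 5.27. Each was lower on both treated than on both untreated Irs2-/- arrays. On the wild-type arrays the treated and untreated levels were 4.60 and 4.72 against 4.53 and 4.69 for Gast, 5.60 and 5.73 against 5.68 and 5.52 for Mfap3l, and 5.74 and 5.64 against 5.66 and 5.37 for Nmb.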

How the results depend on the processing

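The count of 66 genes called in Irs2-/- islets was 34 with a filter at the 60th percentile, 19 on the 4 arrays compared alone, 27 with array weights, 174 with the acinar marker level as a covariate and 153 at an adjusted p under 0.1. Leaving out 1 array gave 16 to 265, and leaving out both untreated replicate 1 arrays, a setting chosen after seeing the data, gave 31. It stayed within 1.5 times with no filter (91), variance trend and robust moderation (75), median centring and quantile normalization (50 each), the mean of probe sets (45) and 2-fold changes (52). With the replicate number as a block it was 82, of which 58 were among the 66, and there were 0 wild-type calls. The block also gave 3 interaction calls, 2 of them shared: Gast and Mfap3l stayed, Nmb did not (limma adjusted p = 0.0623) and Slc5a10 passed (0.0315). Without treated Irs2-/- replicate 1 the share of lower calls was 75.2%, against 95.5%. Called genes kept their sign wherever they were tested among the 19 settings that refit the data, and Fxyd5, Gast and Sorcs2 kept their call in all 19. With the filter at the 60th percentile, some called genes, such as Ccl8 and Cd68, were not tested. The interaction count of 3 was 13 at an adjusted p under 0.1, 6 without both untreated replicate 1 arrays and 0 to 12 when 1 array was left out. The wild-type count of 0 was 9 with the acinar covariate and 0 to 9 when 1 array was left out. Signs turned for genes that were not called: with 1 array left out the range was -1.42 to 0.10 for Aldh1a3, -1.27 to 0.046 for Ddit3 (0.046 also without both replicate 1 arrays), -0.12 to 0.25 for Igf1r, -0.012 to 0.020 for Ins2, -0.045 to 0.48 for Irs1 and -0.075 to 0.28 for Irs2 (-0.075 without both replicate 1 arrays), and under quantile normalization Ins2 and Gcg were at 0. Of 15 other probe sets of 12 called genes, all above the filter, 13 had the same sign but 2 passed the threshold. Probe sets under the filter were not counted. Some differences were far smaller, at -0.84 against -2.04 for Evi2a, -0.31 against -1.40 for Aqp4 and -0.37 against -0.90 for Serpini1. Over the 19 settings, differences were as small as -1.38 for Csn3, -0.89 for Pfkfb3, -0.54 for Pycard and 0.41 for Fam184b. The cause of these changes was not tested.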
